A study of Mus musculus with 10 samples.

Results

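Windows of the genome whose DNA methylation differed widely between WT leukaemias of the same oncogene are described here. A window is 1000 bp of an autosome, and 27019 windows held at least 3 CpGs (a cytosine followed by a guanine) that each had 10 or more reads in all 10 libraries. Its methylation level in a library is the percentage of methylated calls among all calls of those CpGs. Members were chosen by their WT levels: a window was called variable when the highest and the lowest WT library of a model were 30 or more percentage points apart. This gave 1280 windows in MLL-AF9 leukaemia (4.74% of all windows) and 558 in cMyc-Bcl2 leukaemia (2.07%). Between them the lists held 1677 different windows, 6.21% of all, and 161 were on both. The WT levels chose these windows, so their WT spread is given as a description and carries no test.

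The study used mice with a tetracycline-inducible Dnmt3b knockin to ask how raised DNA methylation bears on leukaemia. Genomic DNA of leukaemic spleen was cut with MspI, treated with bisulfite and sequenced (reduced representation bisulfite sequencing, RRBS). MLL-AF9 leukaemias were c-kit+ spleen cells, 3 WT and 3 Dnmt3b-knockin, and cMyc-Bcl2 leukaemias were spleen cells with no sorting marker named, 2 WT and 2 Dnmt3b-knockin. WT here means that the knockin is absent, and the WT libraries carry the oncogenes too. The labels give no animal ages, no inducer schedule, no transplant generation and do not say whether each replicate is a different animal, so the spread between libraries may be in part technical. Libraries are called by group and by a replicate number given in listing order. The 2 models differ in oncogene and in cell preparation, and these cannot be told apart.

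DNA methylation at CpGs is copied onto new strands by Dnmt1 when DNA is replicated, while Dnmt3a and Dnmt3b place it on unmethylated sites. In most cells CpG-rich islands at gene starts are unmethylated, and CpGs outside them are mostly methylated. A level between these extremes in bulk DNA can come from a mixture of cells, of the 2 alleles, or of single molecules, which these data do not separate. MLL-AF9 is a fusion of a histone methyltransferase with a partner from a transcription elongation complex, and it causes mostly myeloid leukaemia. The cMyc-Bcl2 model joins a growth-driving transcription factor with an inhibitor of cell death.

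A few members at gene starts are shown first, because they cover the main forms of variability described below. Promoter sequences are those of RefSeq (assembly GRCm38.p6), each running from 250 bases before to 50 bases after the gene start, 5′ to 3′ on the gene's strand. The spacing of their CpGs was matched to the measured positions, which placed them in mm9, the build of the deposited positions. Capitals mark the CpGs with 10 or more reads in all libraries. The first 3 were methylated in 1 of 10 libraries, 0610009L18Rik in another single library, Rfx8 varied in cMyc-Bcl2 leukaemia, and Papolb varied in both models. Alkbh3 is at chr2:93850838-93851137 (minus strand), Slc25a13 at chr6:6167124-6167423 (minus), Mrpl48 at chr7:107731595-107731894 (minus), 0610009L18Rik at chr11:120209742-120210041 (plus), Rfx8 at chr1:39777785-39778084 (minus) and Papolb at chr5:143005981-143006280 (minus).
Alkbh3: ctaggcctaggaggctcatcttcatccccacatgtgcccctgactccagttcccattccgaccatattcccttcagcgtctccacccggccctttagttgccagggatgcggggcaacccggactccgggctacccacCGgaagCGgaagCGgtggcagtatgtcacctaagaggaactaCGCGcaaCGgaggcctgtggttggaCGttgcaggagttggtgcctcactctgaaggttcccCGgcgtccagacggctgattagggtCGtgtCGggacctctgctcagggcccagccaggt
Slc25a13: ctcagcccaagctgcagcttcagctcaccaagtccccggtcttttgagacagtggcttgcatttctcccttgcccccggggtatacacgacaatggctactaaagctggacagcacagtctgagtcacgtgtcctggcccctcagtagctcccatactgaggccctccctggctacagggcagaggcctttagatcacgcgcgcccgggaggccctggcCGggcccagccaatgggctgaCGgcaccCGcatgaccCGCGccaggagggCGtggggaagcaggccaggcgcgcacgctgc
Mrpl48: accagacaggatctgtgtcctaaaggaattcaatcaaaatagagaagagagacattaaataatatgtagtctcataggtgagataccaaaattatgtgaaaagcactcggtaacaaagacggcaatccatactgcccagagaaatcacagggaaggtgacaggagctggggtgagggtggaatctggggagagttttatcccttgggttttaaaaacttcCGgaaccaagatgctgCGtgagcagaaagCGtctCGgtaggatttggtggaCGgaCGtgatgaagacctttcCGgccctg
0610009L18Rik: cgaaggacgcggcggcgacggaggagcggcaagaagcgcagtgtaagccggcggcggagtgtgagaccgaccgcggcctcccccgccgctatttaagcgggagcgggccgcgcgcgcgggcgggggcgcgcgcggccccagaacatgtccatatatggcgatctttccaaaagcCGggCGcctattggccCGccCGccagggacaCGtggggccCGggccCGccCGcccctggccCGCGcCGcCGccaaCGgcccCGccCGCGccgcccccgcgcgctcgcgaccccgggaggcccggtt
Rfx8: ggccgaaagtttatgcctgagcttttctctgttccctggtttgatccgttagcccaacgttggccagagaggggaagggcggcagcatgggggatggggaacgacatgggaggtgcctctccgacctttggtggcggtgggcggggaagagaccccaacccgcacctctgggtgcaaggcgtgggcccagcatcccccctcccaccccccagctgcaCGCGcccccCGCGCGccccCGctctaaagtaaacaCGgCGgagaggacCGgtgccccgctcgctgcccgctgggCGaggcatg
Papolb: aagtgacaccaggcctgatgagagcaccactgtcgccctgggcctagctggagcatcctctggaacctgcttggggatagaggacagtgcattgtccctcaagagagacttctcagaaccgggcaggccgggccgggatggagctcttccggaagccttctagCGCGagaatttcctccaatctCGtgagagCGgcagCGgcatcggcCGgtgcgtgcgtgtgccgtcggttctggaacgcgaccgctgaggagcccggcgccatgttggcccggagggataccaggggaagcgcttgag

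Libraries held between 14446933 and 46762220 methylation calls, and their median depth in the windows ran from 20.2 to 69.8 reads per CpG. In mitochondrial DNA, which is used to judge bisulfite conversion, 0.910 to 3.20% of CpG calls were methylated. Mean levels over all windows ran from 29.3 to 34.8%, so no library was shifted as a whole by anything near 30 points. A range over 3 libraries is wider than one over 2 for the same spread, and the models were therefore also compared pair by pair. The 3 pairs of MLL-AF9 WT libraries differed by 30 points or more in 616, 503 and 819 windows (2.28, 1.86 and 3.03% of all), and the cMyc-Bcl2 WT pair did so in 558. Pair for pair, the models therefore gave similar numbers, but at unlike depth. Median depth was 23.7, 31.4 and 20.2 reads per CpG in MLL-AF9 WT 1, 2 and 3. In cMyc-Bcl2 WT 1 and 2 it was 28.8 and 69.8. How far depth shaped this comparison of pairs was not tested, so similar variability is not read from it.

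The variable windows were mostly moderately methylated and poor in CpGs. Because their WT levels were used to choose them, windows were classed by their mean level in the 5 knockin libraries. Of the 4525 windows at 20 to 80%, 887 (19.6%) were variable in MLL-AF9 WT and 401 (8.86%) in cMyc-Bcl2 WT. These made up 69.3% and 71.9% of the lists. Of the 6886 windows over 80%, 4.26% and 2.05% were variable, and of the 15608 windows under 20%, 0.641% and 0.103%. CpG density was read as the number of CpGs listed in the window in any library, with a median of 18 in MLL-AF9 members and 14 in cMyc-Bcl2 members, against 31 over all windows. Windows with fewer than 20 listed CpGs were variable in 7.37% (MLL-AF9) and 4.01% (cMyc-Bcl2) of cases, those with 20 to 59 in 4.52% and 1.42%, and those with 60 or more in 1.14% and 0.235%. The share thus fell with density in both models. It also fell within the windows at 20 to 80%, where it was 21.3%, 19.4% and 11.5% for MLL-AF9 and 11.8%, 6.77% and 2.76% for cMyc-Bcl2 in the same order of density.

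**Figure D1:**
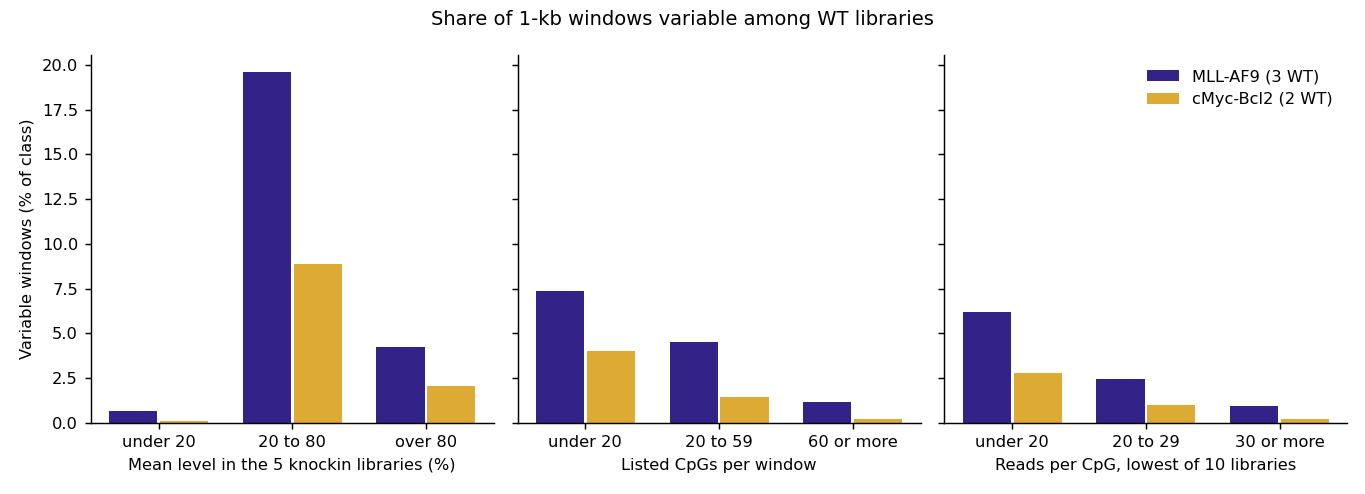
Bars give the percentage of 1-kb windows that were variable among WT libraries, for MLL-AF9 (3 libraries) and cMyc-Bcl2 (2 libraries). Windows are classed by their mean level in the 5 knockin libraries, by listed CpGs and by the lowest depth among the 10 libraries, and the 20 to 80% class stands highest at 19.6% and 8.86%.

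Depth moved with variability, and its part in the counts is shown here only by classes. Windows whose lowest library had under 20 reads per CpG were variable in 6.22% (MLL-AF9) and 2.77% (cMyc-Bcl2) of cases, against 2.45% and 0.986% at 20 to 29 reads and 0.922% and 0.205% at 30 or more. Within the windows at 20 to 80% the gap was smaller, with 20.5% and 9.63% under 20 reads and 16.7% and 6.34% at 20 or more. Members also had few measured CpGs, with exactly 3 in 38.8% and 45.2% of them, against 22.5% of all windows. CpGs read together on 1 molecule are not independent, so precision was taken from reads per CpG. On that count the 95% Wilson intervals of the highest and the lowest WT library were apart in 670 of 1280 MLL-AF9 members (52.3%) and in 510 of 558 cMyc-Bcl2 members (91.4%). These are the levels that chose the windows, so the counts describe their depth and do not test their difference.

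Among MLL-AF9 members the lowest WT library had a median level of 22.9% and the highest 72.0%. In cMyc-Bcl2 the medians were 30.5% and 73.8%. A change from 20% or less to 80% or more occurred in 55 MLL-AF9 members and 4 cMyc-Bcl2 members. MLL-AF9 WT 2 was the highest library in 700 of the 1280 members (54.7%), against 35.8% of all windows, and WT 3 the lowest in 629 (49.1%), against 35.1%. Counted only where both others lay less than 10 points apart, WT 2 stood 20 points or more above them in 252 members, WT 1 in 56 and WT 3 in 62. On the same count WT 3 stood as far below both others in 148, WT 1 in 74 and WT 2 in 63. Variability was therefore spread over all 3 libraries, with WT 2 most often high and WT 3 most often low. WT 3 was also the shallowest library and WT 2 the deepest of the WT libraries of this model, and the part of depth in this order was not tested. In cMyc-Bcl2, WT 2 was the higher library in 316 of 558 members (56.6%), against 35.6% of all windows.

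The widest WT range was found on chromosome 17, in a window of 5 measured CpGs at chr17:84495964-84495999. Its level was 68.5, 97.0 and 0.813% in MLL-AF9 WT 1, 2 and 3, and 99, 39.4 and 55.0% in knockin 1, 2 and 3. In cMyc-Bcl2 it was 19.8 and 20.1% in WT and 26.9 and 62.9% in knockin. The knockin libraries thus also differed, while the cMyc-Bcl2 WT pair did not. The next window begins 9 bp further on (chr17:84496008-84496027, 4 CpGs) and may share reads with it, and its levels were 72.7, 99.2 and 3.09% in MLL-AF9 WT. A window of 10 CpGs at chr17:56565139-56565213 was at 5.92, 96.8 and 0.800% in MLL-AF9 WT and at 49.8, 36.4 and 36.3% in knockin. Here WT 2 was nearly fully methylated, the other WT libraries nearly unmethylated and the knockin libraries in between. At chr1:172838244-172838273 (3 CpGs) the levels were 3.23, 95 and 0% in WT, the last being 0 of 51 calls, which allows up to 5.88% for independent calls. At chr13:9494148-9494193 (6 CpGs) they were 42.1, 3.37 and 97.4% in WT and 95.7 and 98.4% in cMyc-Bcl2 knockin.

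Rab10os, an antisense transcript of the Rab10 locus by its name, was the widest of the promoter members (chr12:3235150-3235565, 14 CpGs). Its level was 1.15, 8.66 and 95.5% in MLL-AF9 WT, 49.9, 6.29 and 2.29% in MLL-AF9 knockin, 0.879 and 2.27% in cMyc-Bcl2 WT and 1.32 and 2.95% in cMyc-Bcl2 knockin. WT 3 and knockin 1 were thus methylated, and the other 8 libraries were under 10%.

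The widest range in cMyc-Bcl2 WT belonged to chr6:82042127-82042194 (4 CpGs). Of the windows on both lists, ranked by the smaller WT range of each, it also came first. Its level was 88.4 and 8.53% in cMyc-Bcl2 WT and 72.7 and 71.6% in knockin. In MLL-AF9 it was 59.7, 17.98 and 98.5% in WT and 56.6, 96.0 and 93.0% in knockin. Both WT groups were spread wide, and the cMyc-Bcl2 knockin pair lay close together. At chr12:70400340-70400509 (5 CpGs) the cMyc-Bcl2 levels were 10.05 and 83.3% in WT and 26.1 and 77.3% in knockin, while MLL-AF9 WT lay at 30.5, 29.7 and 30.9%. The window at chr3:127132939-127132960, on both lists, was at 11.2 and 82.6% in cMyc-Bcl2 WT and at 26.1, 4.29 and 62.8% in MLL-AF9 WT. At chr15:79856174-79856266 the first cMyc-Bcl2 WT library was the high one (76.1 and 6.10%), as it was at chr7:80477013-80477045 (95.4 and 26.0%). At chr11:118634627-118634658 the second was high (27.3 and 97.3%).

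The rule's limit cut through a continuous distribution. The 3 MLL-AF9 windows just inside had ranges of 30 points and the 3 just outside 29.99, 29.98 and 29.96. In cMyc-Bcl2 the ranges were 30, 30.02 and 30.04 points just inside and 29.99, 29.98 and 29.96 just outside.

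The promoters of genes were seldom variable. A window was taken as a promoter window where at least 3 of its measured CpGs lay in a placed promoter, as in 4717 of 27019 windows (17.5%). Of these, 57 (1.21%) were variable in MLL-AF9 WT and 11 (0.233%) in cMyc-Bcl2 WT, against 5.48% and 2.45% of the other windows. Promoters that could not be placed are among the others. Promoter windows were not compared with other windows of like level. Windows with a knockin mean under 20% were variable in 0.641% and 0.103%, which is less often than promoter windows. Member promoters had fewer CpGs than the rest, with medians of 21 (MLL-AF9) and 17 (cMyc-Bcl2) in 300 bases, against 27 over the 5270 placed promoters in tested windows. Their GC content was similar, at 65.0% in each list against 66.3%. The promoters named below were chosen after their values were seen, to show the forms that variability took.

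**Figure D2:**
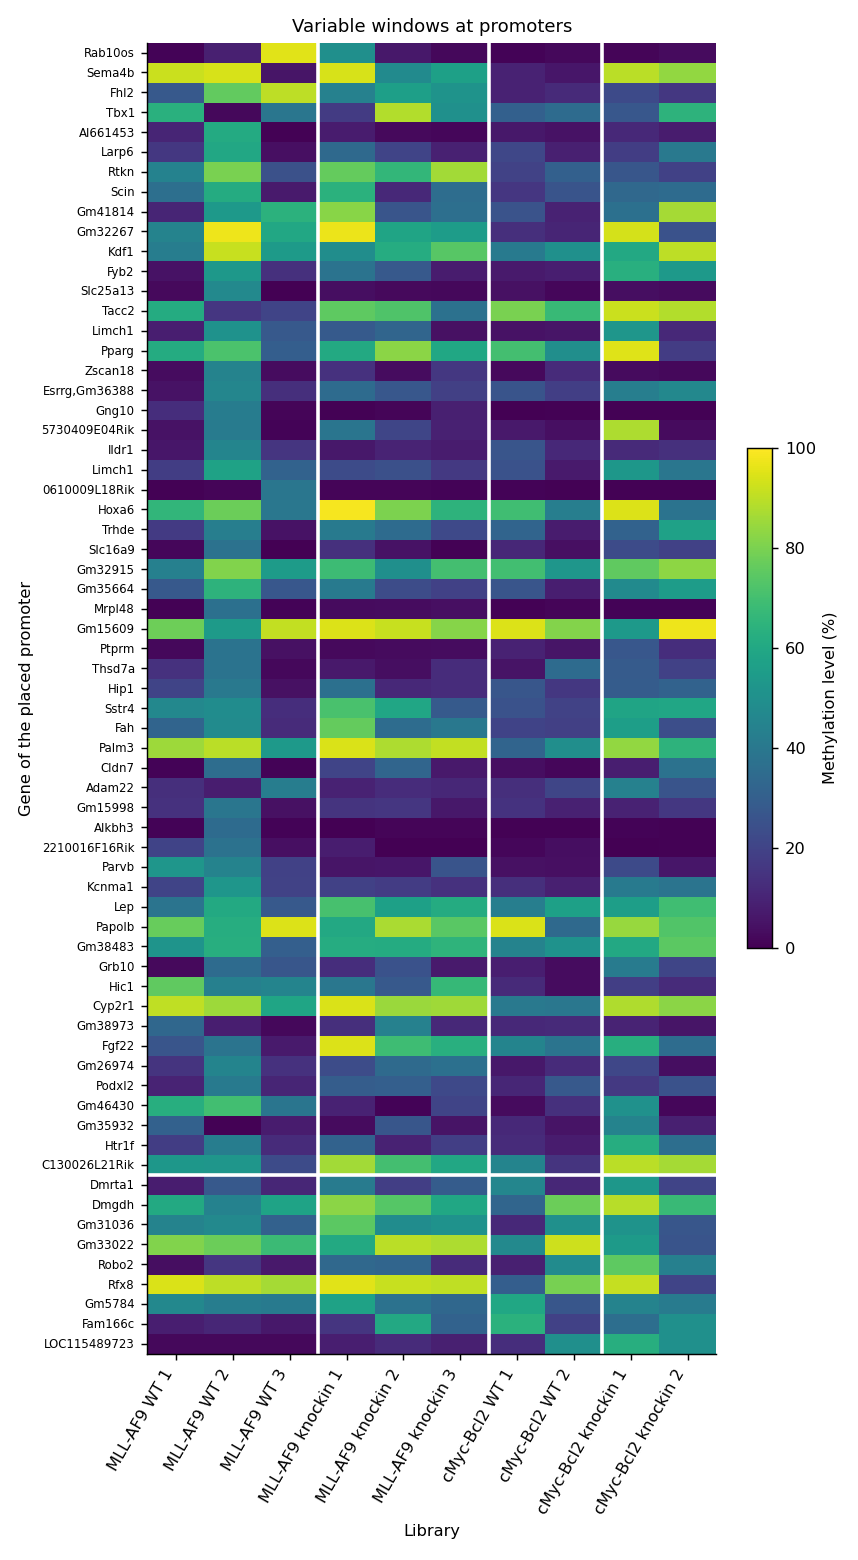
Each row is a variable window at a placed promoter, labelled by gene, and each column is a library, with colour giving the methylation level from 0 to 100%. The 57 MLL-AF9 members stand above the lower white line in order of WT range, the rows under it vary in cMyc-Bcl2 alone, and MLL-AF9 WT 2 is the highest of its group in 42 of the 57.

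In 6 of the 57 MLL-AF9 promoter members the 7 libraries outside MLL-AF9 WT were all under 10%, and WT 2 was the highest in 5 of these 6. Alkbh3, which encodes an enzyme that removes alkyl groups from DNA and RNA, was at 1.11, 34.8 and 0.862% in MLL-AF9 WT (14 CpGs, 16.6 to 102.4 reads per CpG). The other 7 libraries lay between 0.297 and 1.48%. Slc25a13, which encodes a mitochondrial aspartate-glutamate carrier, was at 2.58, 47.1 and 0% in MLL-AF9 WT, the last being 0 of 193 calls and allowing up to 1.55% for independent calls. Its other libraries lay between 1.88 and 4.50%. Mrpl48, a protein of the mitochondrial ribosome, was at 0.446, 36.8 and 1.05%, and elsewhere between 0.683 and 3.99%. In the 3 genes WT 2 alone was methylated, at a level between 34.8 and 47.1%, and no other library reached 10%. Gng10, a G protein gamma subunit, was also highest in WT 2, with 13.0, 42.0 and 1.45% in MLL-AF9 WT over 40 CpGs and at most 8.77% in the other 7 libraries. 0610009L18Rik was instead high in WT 3 (0.744, 1.25 and 39.3% over 26 CpGs) and at 0.554 to 1.28% in the other 7 libraries. Its next window carried the same pattern over 19 CpGs, at 0.403, 0.692 and 30.2%, and missed the limit narrowly with a range of 29.8 points.

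Windows at 30% or more in 1 library and at 10% or less in the other 9 were counted over all windows. MLL-AF9 WT 2 had 10, of which 3 were promoter windows, WT 3 had 4, WT 1 had 1, and each cMyc-Bcl2 WT library had 1. Knockin libraries had such windows too, with 4, 8 and 0 in MLL-AF9 knockin 1, 2 and 3 and 7 and 12 in cMyc-Bcl2 knockin 1 and 2. Methylation of a window in a single library was thus seen in both genotypes.

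Other promoter members were methylated in several libraries. Ptprm, a receptor-type tyrosine phosphatase, was at 2, 38.1 and 4.46% in MLL-AF9 WT, at 2.72 to 3.25% in MLL-AF9 knockin and at 27.2 and 13.1% in cMyc-Bcl2 knockin. Sema4b, a membrane-bound semaphorin, was at 92.0, 94.0 and 5.66% in MLL-AF9 WT and at 93.9, 47.8 and 56.9% in knockin. In cMyc-Bcl2 it separated the genotypes, with 9.43 and 6.02% in WT and 89.6 and 83.8% in knockin. Fhl2, a LIM-domain protein, was at 28.1, 76.0 and 90.1% in MLL-AF9 WT, at 44.1 to 56.5% in knockin and at no more than 22.4% in cMyc-Bcl2. Tbx1, a T-box factor, was at 63.5, 2.02 and 39.1% in MLL-AF9 WT and at 17.2, 88.3 and 50% in knockin, so both groups were spread. Hoxa6, a homeobox factor, was at 66.0, 77.4 and 39.5% in WT and 98.7, 80.2 and 64.7% in knockin. Pparg, a nuclear receptor of fat and myeloid cells, was at 61.5, 71.7 and 30% in WT and 60.7, 82.5 and 59.6% in knockin. Hic1, a zinc-finger repressor, was at 75.6, 43.5 and 44.9% in MLL-AF9 WT and at 3.25 to 18.4% in cMyc-Bcl2. The last gene was thus higher in each MLL-AF9 library than in any cMyc-Bcl2 library, knockin 2 of MLL-AF9 being lowest at 28.0%. Cyp2r1, a vitamin D hydroxylase, was at 90.6, 85.4 and 58.9% in MLL-AF9 WT, while in cMyc-Bcl2 its WT pair (40.3 and 39.6%) lay under its knockin pair (88.2 and 82.6%).

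In cMyc-Bcl2 WT, Rfx8, a member of the RFX transcription factor family, was at 29.95 and 79.6% over 14 CpGs (chr1:39777622-39777866). Its knockin pair was at 91.3 and 20.4%, while all 6 MLL-AF9 libraries lay between 86.7 and 95.3%. The gene thus varied in both genotypes of cMyc-Bcl2 and in neither of MLL-AF9. Robo2, an axon guidance receptor, was at 8.86 and 48.1% in WT and 75.4 and 43.5% in knockin. Dmgdh, a mitochondrial choline-pathway enzyme, was at 32.7 and 77.6% in WT. Papolb, a poly(A) polymerase of the testis, varied in both models, with 94.2 and 34.1% in cMyc-Bcl2 WT and 76.7, 62.2 and 94.6% in MLL-AF9 WT. C130026L21Rik was the other promoter on both lists, and its values stand with the called windows below.

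Windows variable in one model were more often variable in the other than windows at large. The 161 shared windows were 12.6% of the MLL-AF9 list, where 2.07% of all windows were variable in cMyc-Bcl2 WT. They were 28.9% of the cMyc-Bcl2 list, where 4.74% of all windows were variable in MLL-AF9 WT. The WT libraries of the other model took no part in choosing a list. The gap narrowed among windows of like level. At a knockin mean of 20 to 80%, 14.9% of MLL-AF9 members were variable in cMyc-Bcl2 WT, against 8.86% of that class, and 32.9% of cMyc-Bcl2 members were variable in MLL-AF9 WT, against 19.6%. With 20 or more reads per CpG in every library as well, the shares were 13.1% against 6.34% and 34.3% against 16.7%. At chr7:117146667-117146819, with 8 CpGs, the levels were 8.61, 90.5 and 37.1% in MLL-AF9 WT and 29.1 and 89.0% in cMyc-Bcl2 WT. At chr2:120320630-120320690 they were 49.6, 76.3 and 10.9% and 92.1 and 30.5%. At chr19:18963448-18963529 (3 CpGs) they were 70.6, 34.1 and 5% and 79.6 and 19.9%, and at chr9:14925463-14925552 (3 CpGs) 12.1, 4.17 and 62.2% and 15.7 and 77.9%. In each of these windows both models had a mainly methylated and a weakly methylated WT library. Members were found on every autosome. Their share ran from 3.75% of the windows of chromosome 10 to 6.31% of those of chromosome 18 in MLL-AF9, and from 1.32% on chromosome 19 to 2.91% on chromosome 5 in cMyc-Bcl2.

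Variable windows lay next to each other more often than other windows did. Of the 282 MLL-AF9 members whose adjoining window was also tested, 67 (23.8%) had a member there, against 2.36% of non-members. In cMyc-Bcl2 it was 10 of 90 (11.1%) against 0.848%. Within 10 kb the shares were 17.95% against 6.57% in MLL-AF9 and 6.79% against 3.21% in cMyc-Bcl2, counted over windows with a tested neighbour in that reach. The non-members here were of all levels, and windows of like level were not compared. Most members still stood alone, with 1166 of 1280 (MLL-AF9) and 540 of 558 (cMyc-Bcl2) having no other member within 10 kb. MLL-AF9 members formed 46 runs of 2 and 7 runs of 3 or more, the longest with 4, and cMyc-Bcl2 members 9 runs of 2.

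The direction was most often shared between adjoining windows. For each member, the library with its highest WT level was set against the library with its lowest, and the same difference was read in each tested neighbour. In the adjoining window it had the same sign in 207 of 282 pairs (73.4%) in MLL-AF9 and 62 of 90 (68.9%) in cMyc-Bcl2. Differences of 10 points or more had the same sign in 111 and the opposite sign in 12 for MLL-AF9, and 30 and 6 for cMyc-Bcl2. Neighbours that were no members also leaned that way, with 50 and 12 in MLL-AF9 and 20 and 6 in cMyc-Bcl2. At 2 to 5 kb the same sign held in 54.0% and 50% of pairs, at 6 to 10 kb in 50.2% and 45.0%, and at 11 to 50 kb in 46.3% and 46.4%. Differences of 10 points or more still leaned to the same sign in MLL-AF9 at 2 to 5 kb (48 same, 28 opposite) and 6 to 10 kb (37 and 25), and did not at 11 to 50 kb (85 and 84). In cMyc-Bcl2 they were 18 and 15, 14 and 20, and 35 and 44. Adjoining windows can share reads at their border, and a pair of adjoining members can enter these counts from both sides.

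**Figure D3:**
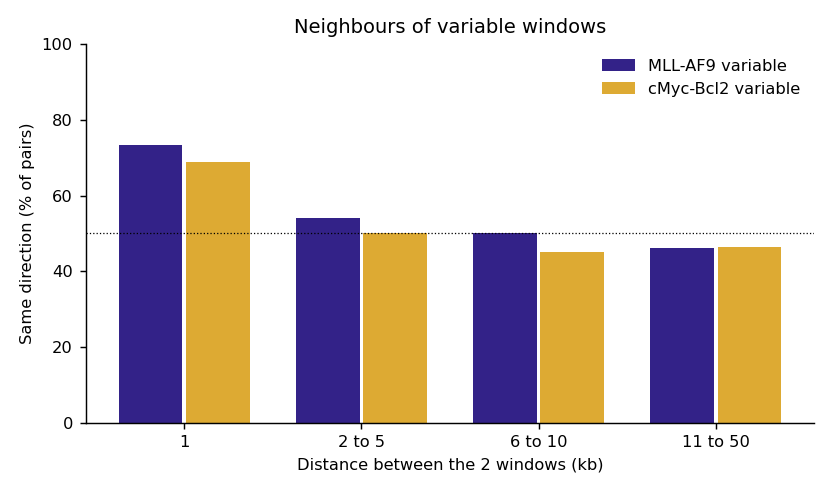
Bars give the percentage of neighbouring windows whose WT difference had the same sign as that of the variable window, by distance in kb, with the dotted line at 50%. The adjoining window stands at 73.4% in MLL-AF9 and 68.9% in cMyc-Bcl2, and the other distances lie between 45.0 and 54.0%.

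The longest run, of 4 members, lay at chr14:22801762-22810142. Its windows were at 12.9, 46.6 and 6.59%, 31.6, 14.8 and 1.20%, 29.3, 67.0 and 28.8%, and 83.1, 89.2 and 57.2% in MLL-AF9 WT 1, 2 and 3. The highest library was WT 2 in 3 of them and WT 1 in the other, so the run did not move as a block. At chr2:26939526-26944416, 3 members were at 74.1, 75.2 and 25.7%, 3.57, 70.8 and 2.14%, and 3.86, 41.2 and 6.30%, all highest in WT 2. A run at chr11:69778861-69780207 began at the promoter of Cldn7, which encodes a claudin of epithelial tight junctions. Its windows were at 0.806, 35.8 and 1.09%, 5.68, 36.5 and 8.39%, and 1.961, 30.6 and 0% in MLL-AF9 WT, the last being 0 of 65 calls and allowing up to 4.62% for independent calls. WT 2 was the high library in all 3. In cMyc-Bcl2 knockin 2 the same windows were at 37.8, 43.1 and 43.8%. At chr15:102836015-102841910 the order changed within the run, with WT 3 highest in the first window (20, 48.3 and 80.7%) and WT 2 lowest in the others (41.7, 7.12 and 36.6%, and 40.1, 5.34 and 46.2%).

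The knockin libraries took no part in the rule, and members were spread among them too. In MLL-AF9 knockin the range reached 30 points in 283 of 1280 members (22.1%), against 2.94% of all windows, and its median was 17.9 points against 2.502. In cMyc-Bcl2 knockin it did so in 96 of 558 members (17.2%), against 2.69%, with a median of 12.1 points against 1.40. Windows of like level were taken by their mean in the libraries of the other model, which neither the rule nor this range used. Among windows at 20 to 80% there, 232 of 872 MLL-AF9 members (26.6%) reached 30 points, against 12.6% of all 4491 such windows, and 68 of 381 cMyc-Bcl2 members (17.8%), against 10.98% of 3735. The gap between members and all windows, which include the members, was thus smaller at like level in both models. Where every library also had 20 or more reads per CpG, it was 53 of 160 (33.1%) against 11.8% in MLL-AF9 and 10 of 66 (15.2%) against 10.8% in cMyc-Bcl2. Each list was also spread in the knockin libraries of the other model, with 188 MLL-AF9 members (14.7%) at 30 points or more in cMyc-Bcl2 knockin and 86 cMyc-Bcl2 members (15.4%) in MLL-AF9 knockin. Among windows with a knockin mean of 20 to 80% the shares were 19.1%, against 13.4% of all such windows, and 20.2%, against 15.2%. That mean includes the libraries whose range was read. With 1 MLL-AF9 knockin library left out, which narrows a range, 7.42% of MLL-AF9 members reached 30 points without knockin 1, 12.03% without knockin 2 and 15% without knockin 3.

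**Figure D4:**
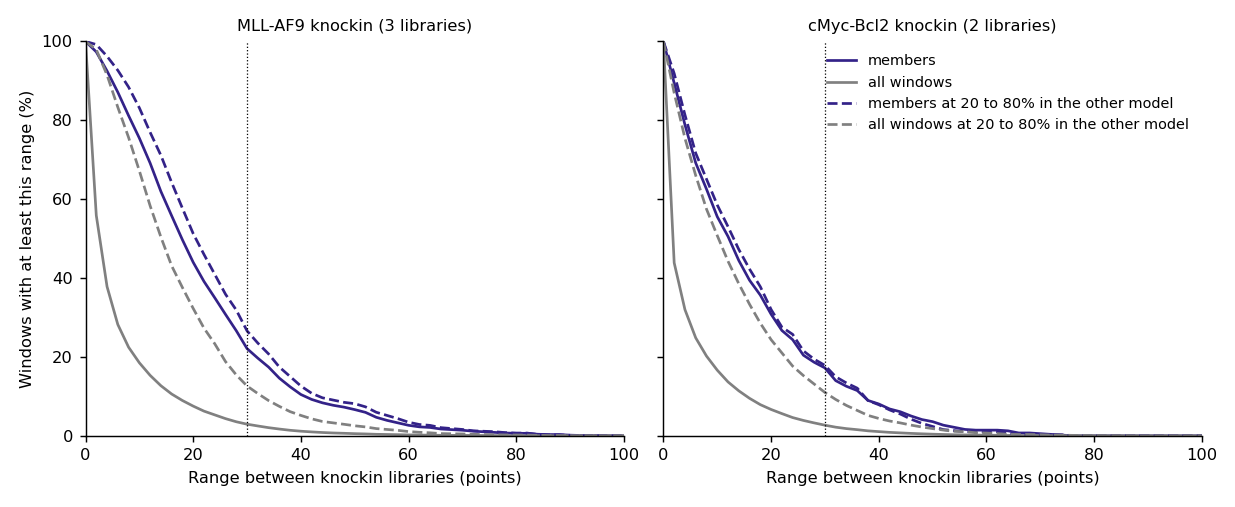
Lines give the percentage of windows whose range between knockin libraries, on the horizontal axis in points, was at least that wide, for members and for all windows, with dashes for windows at a mean of 20 to 80% in the libraries of the other model. At the dotted line at 30 points the solid lines stand at 22.1% and 2.94% in MLL-AF9 and 17.2% and 2.69% in cMyc-Bcl2, and the dashed lines at 26.6% and 12.6%, and 17.8% and 10.98%.

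The widest spread among MLL-AF9 knockin libraries was at chr2:156188722-156188764 (7 CpGs), with 0.733, 74.4 and 97.6% in knockin and 47.7, 65.9 and 100% in WT. At chr9:78369209-78369249 the knockin libraries were at 93.4, 2.30 and 29.2%, and at chr15:50701160-50701328 at 99.04, 9.68 and 33.7%. At chr11:96215921-96215990 they were at 95.7, 8.51 and 6.84%, with WT at 23.5, 39.8 and 5.15%. Knockin 1 was high in the latter 3 windows and low in the first. The narrowest knockin ranges were found at both ends of the scale. The window at 0610009L18Rik was at 0.949 to 1.28% in MLL-AF9 knockin, and chr1:134288332-134288458 (21 CpGs) at 1.32 to 1.91%, with 1.14, 33.0 and 1.28% in WT. At chr3:88340361-88340929 (11 CpGs) the knockin libraries were at 96.7 to 97.2% and WT at 59.1, 94.7 and 38.9%. In cMyc-Bcl2 the widest knockin spread was at chr5:112271735-112271780, with 19.6 and 93.8% in knockin and 58.5 and 11.4% in WT. Those at chr1:135078176-135078250 (35.4 and 2.60% in WT, 81.0 and 8.21% in knockin), chr7:17341043-17341073 (44 and 90.8%, 23.0 and 91.4%) and Rfx8 were also spread in both genotypes. The narrowest were nearly equal and high in knockin. The pairs were 95.4 and 95.4% at chr16:18222498-18222582 (WT 68.1 and 98.2%), 95.1 and 94.98% at chr5:151304544-151304690 (WT 62.9 and 96.6%), 84.1 and 84.3% at chr6:24449504-24449587 (WT 91.4 and 56.0%) and 98.2 and 98.4% at chr13:55774594-55774696 (WT 98.3 and 59.4%).

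Members were on the whole more methylated in knockin than in WT, as windows of intermediate level were at large. The median difference between group means was 10.02 points over MLL-AF9 members and 10.96 over cMyc-Bcl2 members, against 0.739 and 0.0408 points over all windows. Among windows with a WT mean of 20 to 80% it was 10.99 for the 1093 MLL-AF9 members and 9.88 for all 3610 windows, and 11.03 for the 534 cMyc-Bcl2 members and 10.9 for all 3524. A gain of 10 points or more was seen in 53.4% of these MLL-AF9 members and 49.6% of all such windows, and a loss of that size in 7.87% and 4.598%. In cMyc-Bcl2 a gain was seen in 53.9% against 52.5% and a loss in 13.1% against 9.62%. All windows here include the members, and the WT levels that chose each list enter its difference. Each list was therefore also read in the other model, by its WT mean there. The 773 MLL-AF9 members at 20 to 80% in cMyc-Bcl2 WT rose by a median of 14.0 points, 59.4% of them by 10 or more. The 377 cMyc-Bcl2 members at 20 to 80% in MLL-AF9 WT rose by 10.8 points, 54.9% of them by 10 or more. Both medians and both shares lay above those of all such windows. Over the MLL-AF9 members the median level was 44.1, 56.6 and 39.5% in MLL-AF9 WT 1, 2 and 3 and 66.7, 59.8 and 55.5% in knockin. In cMyc-Bcl2 the same windows had medians of 41.9 and 46.0% in WT and 66.4 and 61.5% in knockin. Over the cMyc-Bcl2 members they were 48.6 and 56.0% in cMyc-Bcl2 WT, 67.0 and 65.2% in its knockin, 51.5, 58.5 and 52.1% in MLL-AF9 WT and 69.9, 69.9 and 63.7% in its knockin. In each of these 4 sets the highest WT median lay under the lowest knockin median, except over MLL-AF9 members in their own model, where WT 2 (56.6%) lay above knockin 3 (55.5%).

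**Figure D5:**
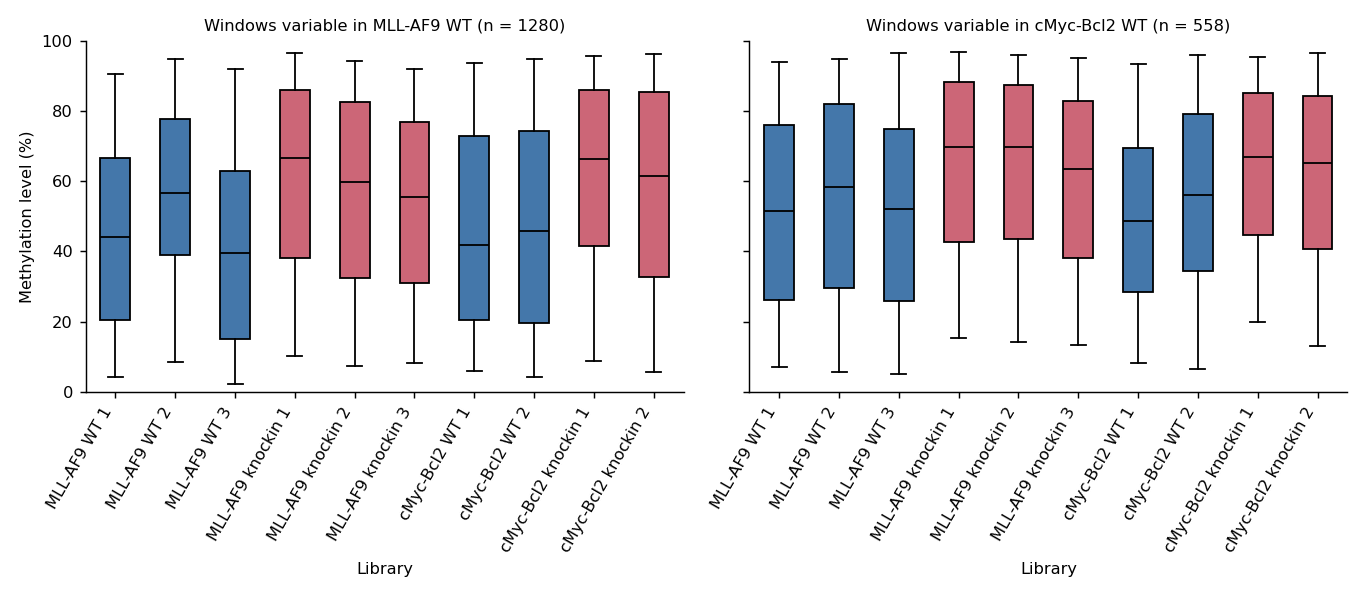
Boxes give the quartiles and median methylation level of the variable windows in each library, with whiskers from the 5th to the 95th percentile, for the 1280 MLL-AF9 members on the left and the 558 cMyc-Bcl2 members on the right, WT in blue and knockin in red. Knockin medians run from 55.5 to 69.9% and WT medians from 39.5 to 58.5%.

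Separation of the genotypes was counted as a description. The knockin libraries all exceeded the WT libraries in 118 MLL-AF9 members (9.22%), where this held for 18.5% of all windows, and below in 7 (0.547%, against 1.47%). In cMyc-Bcl2 it was 97 members above (17.4%, against 25%) and 10 below (1.79%, against 18.3%). All knockin libraries lay between the lowest and the highest WT library in 550 MLL-AF9 members (43.0%, 21.5% of all windows) and in 229 cMyc-Bcl2 members (41.0%, 17.7%). The rule used these WT levels, so nothing is read from these shares. Read in the other model, the MLL-AF9 list had both cMyc-Bcl2 knockin libraries above both WT libraries in 536 windows (41.9%) and below in 117 (9.14%). The cMyc-Bcl2 list had all MLL-AF9 knockin libraries above all WT libraries in 126 windows (22.6%).

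Each window was fitted with a quasi-binomial model of knockin against WT, its dispersion moderated with limma, and a call needed a Benjamini-Hochberg adjusted p under 0.05 over all windows and 10 points of difference. The wide WT spread of members enters that dispersion and lowers their chance of a call, and the fit uses the WT libraries that chose them. In the fit of both models, 57 members were called higher in knockin (48 of the MLL-AF9 list, 3.75%, and 16 of the cMyc-Bcl2 list, 2.87%), where 3.99% of all windows were. None was called lower, where 0.0333% of all windows were. At an unadjusted p under 0.05, 392 members were higher (23.4%, against 19.1% of all windows) and 15 lower (0.894%, against 1.25%). Limma on M-values called 6 higher (0.358%, against 0.577% of all windows) and 0 lower (0%, against 0.0037%). In MLL-AF9 alone, 1 member was called higher (0.0596%, against 0.0222% of all windows) and 0 lower (0%, against 0.0037%). At an unadjusted p under 0.05 it was 273 higher (16.3%, against 12.7% of all windows) and 15 lower (0.894%, against 0.648%). Those higher were 12.1% of the MLL-AF9 list and 24.6% of the cMyc-Bcl2 list. Limma on M-values called 0 in MLL-AF9 alone (0% of all windows). In cMyc-Bcl2 alone the fit called 0 windows in either direction (0% of all). At an unadjusted p under 0.05, 349 members were higher (20.8%, against 12.5% of all windows) and 43 lower (2.56%, against 2.01%). Those higher were 25.9% of the MLL-AF9 list and 5.91% of the cMyc-Bcl2 list. In each fit of 1 model, the list chosen on its own WT libraries thus had the lower share. These shares were not compared with windows of like level. In cMyc-Bcl2 alone, limma on M-values called 1 member higher (0.0596%, against 0.0037% of all windows). With the 4 groups in 1 fit, which pools their spread, 114 members were called higher and 9 lower in cMyc-Bcl2. The count of 57 ran from 8 to 129 when single libraries were left out. For the fit of 4 groups and with libraries left out, the share of all windows called was not counted. Nothing about members is therefore read from those counts.

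The promoter of C130026L21Rik had the largest difference of the called members. Its window (chr5:112010369-112010697, 7 CpGs) was at 53.0, 52.5 and 22.7% in MLL-AF9 WT and 86.1, 70.0 and 59.8% in knockin, and at 45.2 and 15.2% in cMyc-Bcl2 WT and 89.8 and 86.5% in knockin. No WT library of a model reached a knockin library there, and the difference was 43.6 points (quasi-binomial fit of both models, adjusted p = 0.0370). At chr7:53632008-53632067 the levels were 0 (0 of 58 calls, which allows up to 5.17% for independent calls), 35.2 and 17.8% in MLL-AF9 WT and 37.7, 53.0 and 35.2% in knockin. In cMyc-Bcl2 it was at 8.20 and 17.7% in WT and 69.0 and 81.6% in knockin, and the difference was 43.3 points (quasi-binomial fit, adjusted p = 0.0404). At chr4:151734793-151734859 the levels were 30.4, 60 and 9.43% against 52.3, 82.6 and 68.6% in MLL-AF9 and 15.3 and 34.5% against 76.0 and 71.4% in cMyc-Bcl2 (41.7 points, quasi-binomial adjusted p = 0.0413). At chr5:143723963-143723996 and chr7:149268312-149268503 the differences were 41.1 and 39.3 points (quasi-binomial adjusted p = 0.0413 and 0.0404). WT and knockin overlapped in MLL-AF9 in these last 4 windows and did not in cMyc-Bcl2. The member called in MLL-AF9 alone was chr12:70400340-70400509 of the cMyc-Bcl2 list, where MLL-AF9 WT lay at 29.7 to 30.9% and knockin at 70.4, 69.3 and 74.2%, a difference of 40.9 points (quasi-binomial fit, adjusted p = 0.0414). Leaving out any single MLL-AF9 library ended this call.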

How the data were processed

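Each deposited file gives, per cytosine position, a pair of whole numbers as deposited by the authors, taken as methylated and then unmethylated call counts; the order was settled from mitochondrial CpGs. Positions are on mm9, and the submitters' processing notes name Bismark 0.7.4, Trim Galore 0.2.2, methylKit and CASAVA, whose settings these sources do not record. The files list both strands of a CpG apart, and these were joined (8185408 positions, 5837757 CpGs, of which 320305 on autosomes had 10 or more reads in all 10 libraries). Calls were summed per 1000-bp window, and levels were computed as percentages from these counts.

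The windows, classes and lists were chosen with earlier results of these data known. Windows were named by their rank (the 6 widest WT ranges in each model and in both, the 4 widest and narrowest knockin ranges, the 3 on each side of the limit, the longest runs and the called members, none from chromosome 18). Windows variable in both models were ranked by the smaller of their WT ranges. Further runs and promoter members were chosen after their values were seen.

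Quasi-binomial fits (oncogene as covariate where both models entered) were written in Python 3.11.15 (scipy 1.17.1, numpy 2.4.6, pandas 2.3.3), with dispersions of at least 1 moderated by limma 3.58.1 (R 4.3.3), an F-test and Benjamini-Hochberg adjustment over all 27019 windows; they were tested on simulated data. Limma on M-values added 0.5 to each count. Intervals are 95% Wilson intervals, and a level of 0 is given with the limit of 3 calls. Both cover counting error only, since PCR copies were not marked. The limit takes all calls as independent, so it is too low where CpGs were read together on 1 molecule.

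No genome or annotation of mm9 was used here. Promoters of the RefSeq table (GRCm38.p6, 31396 on autosomes, 15382 with 8 or more CpGs) were placed where their CpG spacing matched listed positions at a single place, which placed 8715; mirrored spacings placed 19. No coordinates were converted. Of 40 lineage marker genes, 2 (Gata3 and Tcf7) had a tested promoter, with WT ranges of at most 3.02 points, so the labelled cell types could not be checked. Alternatives were other coverage minimums, thresholds, window sizes, CpG minimums and weights, leaving out chromosomes 15 and 16 or CpGs above the 99.9th percentile of coverage, limma on M-values, 1 fit of the 4 groups, and leaving out single libraries. Counting each listed cytosine alone, and classing windows by their level in the other model, were added after seeing the data.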

Additional observations from a re-analysis of the deposited data

How the results depend on the processing

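Of 166 alternative values, 102 stayed within the spread or within 1.5 times the count, and 64 moved. Only the median knockin differences could change sign, and none did. Counts of called members that were 0 both in the main setting and in the alternative are among those that stayed. Counts of variable windows (MLL-AF9, cMyc-Bcl2, both) moved with the rule: 227, 79 and 24 at 20 reads, 2398, 1110 and 307 at 5 reads, 2663, 1480 and 623 at 20 points, 583, 234 and 42 at 40 points, and 509, 153 and 45 with 5 CpGs. The windows tested were 10444 at 20 reads, 42951 at 5 reads and 17198 with 5 CpGs. Leaving out 1 MLL-AF9 WT library gave 503 to 819 windows, and 74 to 90 in both. The share of MLL-AF9 members at 30 points or more in knockin was 29.1% at 20 reads, 36.6% at 20 points, 16.5% at 40 points, 27.1% with 5 CpGs and 7.42 to 26.3% without single libraries. In cMyc-Bcl2 it was 27.4% at 20 points and 9.83% at 40. The median knockin difference was 5.86 to 13.4 points without single MLL-AF9 libraries, and 12.5 points in cMyc-Bcl2 with 5 CpGs.

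Members called higher in the fit of both models were 6 by limma on M-values, 7 at 20 reads, 100 at 5 reads and 8 to 129 without single libraries (8 without cMyc-Bcl2 WT 2, 129 without MLL-AF9 WT 2); at most 2 were called lower. In MLL-AF9 alone they were 0 by limma on M-values, 2 at 5 reads, and 0 at 20 reads, in 1 fit of the 4 groups and without any single MLL-AF9 library. In cMyc-Bcl2 alone they were 1 by limma on M-values and 114 higher with 9 lower in 1 fit of the 4 groups, which pools the spread of all groups. Outside limma on M-values, the share of all windows called was not counted for these alternatives, and nothing about members is read from them. Members with another within reach were 8.91% (MLL-AF9) and 3.23% (cMyc-Bcl2) at 10 kb, 21.1% and 10.8% at 50 kb, and 6.52% and 1.71% at 10 kb for members of 40 points or more. The cause of these changes was not tested. No paired analysis was possible because the labels give the groups no shared replicate numbers. With 2 or 3 libraries a group and a median of 16.5 reads per CpG in the lowest WT library of MLL-AF9 members, levels of single windows are imprecise.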
